A study of Mus musculus with 17 samples.

Results

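The mitochondrial ribosomal RNA rows were described in 17 RNA sequencing libraries of the neonatal mouse heart. They are the rows on the mitochondrial chromosome (chrM) whose position starts at base 70 or at the first base of mt-Rnr2, which gave 5 of the 23940 rows in each deposited table. These 5 rows carry 4 distinct IDs, because NONMMUT071574 stands in 2 rows, which were kept apart. The labels describe total RNA of the right ventricle (RV) or left ventricle (LV) of male C57Bl/6 mice, biological replicates, and paired-end libraries that keep the strand. The groups were RV and LV at postnatal day 0 (P0, before the ductus arteriosus closes), day 3 (P3, a transition stage) and day 7 (P7, when most heart muscle cells are terminally differentiated). Each group held 3 libraries, except RV at P7, which held 2, and no group carried a treatment or a genetic change. The labels do not say whether RV and LV libraries came from the same animals, nor how ribosomal RNA was handled before sequencing.

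The mitochondrial ribosome translates the few proteins that the mitochondrial genome encodes, all of them subunits of the respiratory chain and ATP synthase. Its small subunit is built on the 12S rRNA, encoded by mt-Rnr1, and its large subunit on the 16S rRNA, encoded by mt-Rnr2. Both are transcribed from the same strand as parts of long precursors in which tRNAs stand between the genes, and cutting out these tRNAs frees the rRNAs and mRNAs. Heart muscle is rich in mitochondria, and after birth it turns from glycolysis to the oxidation of fatty acids.

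The deposited tables do not pair IDs with gene names, so the rows were matched to genes by position. The 3 rows at chrM:70-1024 (955 bases) have the start and end of mt-Rnr1 in GENCODE M21 (GRCm38). The other 2 rows (2610 bases, ending at 3703) start where mt-Rnr2 starts but run past its end at 2675. They cover the 1582 bases of mt-Rnr2 (60.6% of the span), the 75 bases of the leucine tRNA gene mt-Tl1 and 953 bases of mt-Nd1 (36.5%), which encodes a subunit of respiratory complex I. They end 4 bases before the end of mt-Nd1. How much of the value of these longer rows came from mt-Rnr2 and how much from mt-Nd1 cannot be told from 1 value per row. All of these genes lie on the plus strand, and the tables give no strand. In base composition the genes are close, with 35.8% G or C in mt-Rnr1, 35.4% in mt-Rnr2 and 37.6% in mt-Nd1. The sequences below, from the GENCODE M21 transcripts (GRCm38, plus strand), show the start shared by the 3 rows at 70 and both boundaries that set the spans. Capitals mark the tRNA genes, mt-Tv (valine) between the spans and mt-Tl1 inside the longer one.
mt-Rnr1 start, chrM:70-189: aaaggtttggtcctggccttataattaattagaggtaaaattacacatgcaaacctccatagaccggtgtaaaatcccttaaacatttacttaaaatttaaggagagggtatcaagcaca
end of mt-Rnr1, mt-Tv, start of mt-Rnr2, chrM:935-1183: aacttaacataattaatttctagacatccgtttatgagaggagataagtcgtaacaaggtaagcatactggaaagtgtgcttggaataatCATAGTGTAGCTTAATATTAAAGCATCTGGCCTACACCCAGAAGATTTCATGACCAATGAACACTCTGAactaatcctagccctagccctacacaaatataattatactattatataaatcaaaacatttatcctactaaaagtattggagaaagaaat
end of mt-Rnr2, mt-Tl1, start of mt-Nd1, chrM:2586-2840: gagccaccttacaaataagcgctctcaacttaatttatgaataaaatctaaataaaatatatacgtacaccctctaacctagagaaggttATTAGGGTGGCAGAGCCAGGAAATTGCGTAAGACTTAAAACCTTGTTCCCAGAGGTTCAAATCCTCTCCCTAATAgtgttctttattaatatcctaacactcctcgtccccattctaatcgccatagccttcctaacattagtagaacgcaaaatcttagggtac

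The deposited unit is not named, and the values are treated here as FPKM, that is, fragments per kilobase of a row scaled to the size of the library. With each row's span as its length, 72.8% to 76.6% of the low values of a library fell on a common step (within 0.05 of a step), and steps of 0.5 fragments then correspond to 13.8 to 20.5 M fragments per library. The length the authors counted for a row is not given and was not the whole span for every row. The values of NONMMUT071577, which starts with mt-Rnr2, fell on a step that corresponds to 1579 bases in place of the 2610 of its span. The libraries also differed in a way that the groups do not explain. The chrM row NONMMUT071594, over parts of mt-Co3 and mt-Nd3, measured 132 to 247 FPKM in 6 libraries (the high set) and 7.93 to 25.8 FPKM in the other 11 (the low set). The high set held 1 library of each ventricle at P0 (replicate 3), 2 of each at P3 (replicates 1 and 3), and none at P7. RV P3 replicate 2 had the lowest depth and the most rows at 0 (49.2%). The 20 marker symbols of heart cell types chosen to check the tissue could not be looked up, since the tables list IDs without gene symbols. The tissue label was therefore not checked.

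The most abundant row of each table was the 16S row NONMMUT071578, and the second was the first of both rows of NONMMUT071574, called the 12S row here. This order held in 17 of 17 libraries. The 16S row ranged from 12893 to 22889.7 FPKM with a median of 16783, and the 12S row from 761 to 2839.7 FPKM with a median of 1591. The largest row off chrM reached 257 to 408 FPKM in the same libraries. The number of fragments behind each rRNA row is not given, since it needs the length counted. The other 3 rows were far lower, with medians of 3.34, 0 and 0.0334 FPKM.

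The 16S row was higher at P7 than at P0 in both ventricles. In RV it measured 22283 and 19933 FPKM at P7, against 14452, 16783 and 14391 FPKM at P0. In LV it measured 21538, 22889.7 and 20696 FPKM at P7, against 14172, 16091 and 15010.0 FPKM at P0. All 5 libraries of P7 lay above all 6 of P0. At P3 it measured 14457, 17589 and 16039.9 FPKM in RV and 12893, 20023 and 17363 FPKM in LV. The range of P3 thus overlapped with that of P0 in each ventricle, and LV P3 replicate 2, at 20023 FPKM, reached into the range of P7. Since these are bulk samples, a change in the cells present, in mitochondria per cell or in rRNA per mitochondrion cannot be told apart. The same holds for a change in the mt-Nd1 part of the row. It also holds for a difference in how ribosomal RNA was handled before sequencing, which the labels do not describe.

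**Figure D1:**
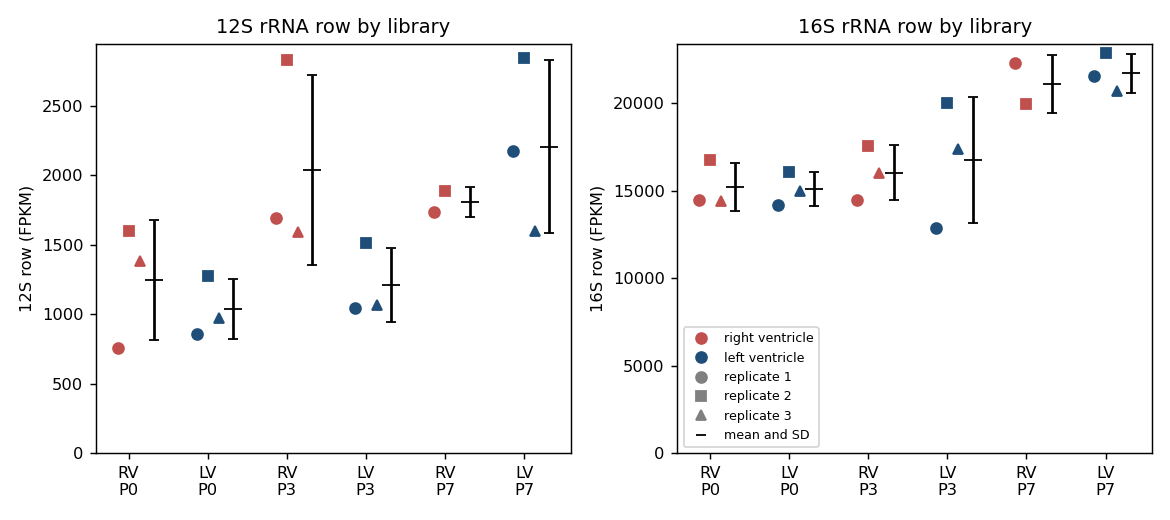
Deposited values (FPKM, linear axes from 0) of the 12S row (left) and the 16S row (right) in each of the 17 libraries, by ventricle and postnatal day. Points are libraries, and black bars give the group mean and SD (n = 3, and 2 for RV at P7). All 5 P7 libraries of the 16S row lie at 19933 FPKM or more, above the 6 P0 libraries.

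Changes were tested with limma on log2(FPKM + 0.1) over all 11079 rows that passed a filter on low values, with a Benjamini-Hochberg adjusted p under 0.05 as the threshold. Of the 5 rRNA rows, 4 passed the filter. In RV the 16S row rose to 21108 ± 1662 FPKM at P7 (SD, n = 2), against 15209 ± 1364 FPKM at P0 (SD, n = 3). The log2 change was 0.47 ± 0.12 (SE), a fold of 1.39, with limma adjusted p = 0.0281. In LV it rose to 21708 ± 1106 FPKM at P7, against 15091 ± 963 FPKM at P0 (SD, n = 3 each). The log2 change was 0.53 ± 0.11 (SE), a fold of 1.44, with limma adjusted p = 0.00454. Over all rows tested, the median log2 change ran the other way, at -0.27 in RV and -0.32 in LV. With each library scaled to an equal median, the 16S row differed by 0.75 in RV (limma adjusted p = 0.0947) and by 0.85 in LV (limma adjusted p = 0.0227). Over the 11 libraries of the low set, the 16S row changed by 0.44 in RV (limma adjusted p = 0.0185) and 0.52 in LV (limma adjusted p = 0.00243).

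The call in RV was the less firm one. It was lost without RV P7 replicate 1 (limma adjusted p = 0.306), RV P7 replicate 2 (0.0607), RV P0 replicate 1 (0.112), RV P0 replicate 3 (0.0889) or LV P0 replicate 3 (0.0526). The LV call held without any 1 library, with adjusted p values up to 0.0321, and was lost without the variance trend (limma adjusted p = 0.160). The P7 to P0 change of the 16S row did not pass the test of a difference between the ventricles (RV minus LV, -0.05 ± 0.17 SE on the log2 scale, limma adjusted p = 1).

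The 12S row rose with age in LV. It measured 2176, 2839.7 and 1599 FPKM in LV at P7, against 859, 1278 and 975 FPKM in LV at P0, and the groups did not overlap. The group values were 2205 ± 621 FPKM at P7 and 1037 ± 216 FPKM at P0 (SD, n = 3 each). The log2 change was 1.07 ± 0.30 (SE), a fold of 2.10, with limma adjusted p = 0.0358. Only 356 of the 11079 rows tested had a larger increase. With the median scaling the change was 1.39 (limma adjusted p = 0.0283). The call was lost without LV P0 replicate 1 (limma adjusted p = 0.123), LV P0 replicate 3 (0.124), LV P7 replicate 1 (0.0902) or LV P7 replicate 2 (0.110), and in the low set alone, where the change was 1.03 (0.0555).

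In RV the mean of the 12S row was highest at P3, an order that rests on RV P3 replicate 2 and on the scaling. It measured 761, 1596 and 1382 FPKM in RV at P0, then 1696, 2827 and 1591 FPKM at P3, and 1732 and 1883 FPKM at P7. In LV at P3 it measured 1048, 1515 and 1065 FPKM. Both RV P7 libraries lay above all 3 RV P0 libraries, but the log2 change of 0.60 ± 0.33 (SE) did not pass the test (limma adjusted p = 0.350), and it was 0.28 without RV P0 replicate 1. The P7 minus P3 difference was 0.14 without RV P3 replicate 2, the library of lowest depth, 0.12 with median scaling and 0.095 scaled to the sum off chrM, against -0.12 with all libraries as deposited. The P3 to P0 change in RV was 0.73 ± 0.30 (SE, limma adjusted p = 0.274), and without RV P3 replicate 2 it was 0.47. The difference between ventricles in the P7 to P0 change was -0.46 ± 0.45 (RV minus LV, SE; limma adjusted p = 1), and it ranged from -0.79 without RV P0 replicate 1 to -0.25 without RV P0 replicate 2.

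Between P7 and P0, 2 of the 4 rRNA rows tested were called in LV, both higher at P7, where 11.2% of all rows were called. In RV 1 of 4 was called, where 5.55% of all rows were called. In the steps between, 0 of 4 were called. The share of all rows called was 2.46% for P3 against P0 in RV, 1.89% for the same step in LV, 0.74% for P7 against P3 in RV and 1.34% for P7 against P3 in LV. For P7 against P3, the 16S row had log2 changes of 0.40 ± 0.12 in RV (SE, limma adjusted p = 0.182) and 0.40 ± 0.11 in LV (SE, limma adjusted p = 0.0919). For the 12S row that step was -0.12 ± 0.33 in RV (SE, limma adjusted p = 0.930) and 0.85 ± 0.30 in LV (SE, limma adjusted p = 0.216). At an unadjusted limma p under 0.05 the 12S and 16S rows passed in LV, where 1566 of all 11079 rows tested passed. In RV the 16S row, which was higher at P7, and the second row of NONMMUT071574, which was lower (log2 change -0.86), passed. There 1251 of the 11079 rows passed. P7 has no library of the high set, and P3 has 1 of the low set in each ventricle. With the high set left out, the P7 to P3 change of the 16S row was 0.26 ± 0.10 in RV and 0.12 ± 0.098 in LV (log2 scale, SE).

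**Figure D2:**
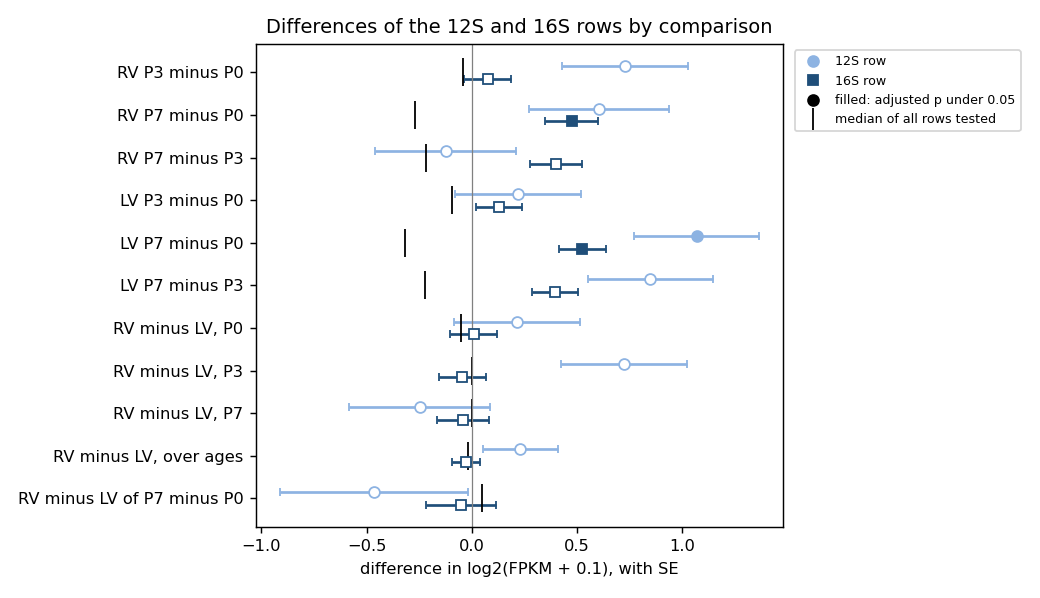
Differences in log2(FPKM + 0.1) of the 12S row (circles) and the 16S row (squares) for each comparison, with SE from the limma fit. Filled symbols have an adjusted p under 0.05, which holds for the 16S row at P7 against P0 in both ventricles and for the 12S row in LV, and the vertical ticks give the median of all 11079 rows tested.

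In order of group means, the 12S row ran from LV P0 (1037 FPKM) over LV P3 (1209 FPKM), RV P0 (1246 FPKM), RV P7 (1808 FPKM) and RV P3 (2038 FPKM) to LV P7 (2205 FPKM). Among neighbours in this order, the ranges were apart for RV P7 and RV P0 and overlapped elsewhere. The 16S row ran from LV P0 (15091 FPKM) over RV P0 (15209 FPKM), RV P3 (16029 FPKM), LV P3 (16759.8 FPKM) and RV P7 (21108 FPKM) to LV P7 (21708 FPKM), and every pair of neighbours overlapped. Within groups, replicate 2 held the highest 12S value in 6 of 6 groups and the highest 16S value in 5 of 6. The labels give no meaning to the replicate number.

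Neither row was called between the ventricles in the unpaired fit, with 0 of 4 rRNA rows called at each age and over the ages. Over the 3 ages, the RV minus LV difference was 0.23 ± 0.18 for the 12S row and -0.03 ± 0.07 for the 16S row (log2 scale, SE; limma adjusted p = 0.869 and 0.983), which was 0.0097 for the 16S row with scaling to the sum off chrM. For the 16S row the differences were 0.01 ± 0.11 at P0, -0.05 ± 0.11 at P3 and -0.04 ± 0.12 at P7 (SE). For the 12S row they were 0.22 ± 0.30 at P0, 0.72 ± 0.30 at P3 and -0.25 ± 0.33 at P7 (SE). Leaving out 1 library gave 0.0032 (RV P0 replicate 2) to 0.54 (RV P0 replicate 1) at P0 and -0.46 (LV P7 replicate 3) to -0.046 (LV P7 replicate 2) at P7. At P3 the 12S row was higher in each of the 3 RV libraries (1591 to 2827 FPKM) than in each of the 3 LV libraries (1048 to 1515 FPKM). Its limma adjusted p was 0.814, where 0.00903% of all rows were called. Its unadjusted limma p was 0.0302, where 651 of the 11079 rows tested had an unadjusted p under 0.05. Without RV P3 replicate 2 the difference was 0.46. With the replicate number as a block, a pairing that the labels do not state, the 12S row was called at P3 (limma adjusted p = 0.0348). In that fit 11 of the 11079 rows were called at P3. The share of all rows called was 0% at P0, 0.00903% at P7 and 0.00903% over the ages.

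As a share of all values in a table, the 12S and 16S rows together made up more than the remaining rows combined in every library. The sum weighs each row per length and leaves out genes without a row, so it is not a share of reads. The share was 56.1%, 61.7% and 56.1% in RV at P0, 56.9%, 64.4% and 60.0% at P3, and 71.9% and 66.6% at P7. In LV it was 55.7%, 59.8% and 54.9% at P0, 52.2%, 67.6% and 60.8% at P3, and 69.1%, 71.3% and 67.9% at P7. The 5 libraries of P7 thus lay above the 6 of P0, and LV P3 replicate 2, at 67.6%, was the P3 library that reached the range of P7.

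With ventricle as stratum, the share at P7 was 11.95 percentage points above that at P0. An exact permutation test (two-sided) gave p = 0.005, the smallest p that its 200 arrangements can give, and 0.04 after adjustment over the 8 tests of share and ratio. Against P3 the difference was 9.04 percentage points (exact permutation p = 0.015, adjusted 0.06), and P3 stood 2.91 percentage points above P0 (exact permutation p = 0.285, adjusted 0.38). In the low set alone, P7 was 11.0 percentage points above P0 (exact permutation p = 0.0167, the smallest possible there) and 3.39 above P3 (exact permutation p = 0.167). Within 1 ventricle, no test of 3 libraries against 3 or of 2 against 3 can go below 0.1. Between the ventricles the mean difference over the ages was 0.41 percentage points (RV minus LV, exact permutation p = 0.832).

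**Figure D3:**
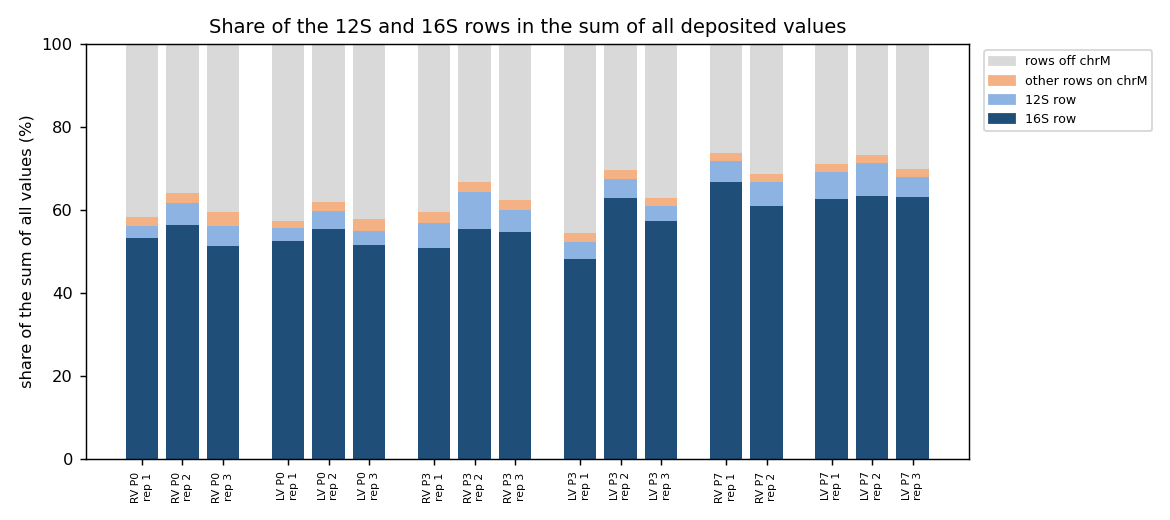
Share (%) of the sum of all deposited values taken by the 16S row, the 12S row, the other rows on chrM and all rows off chrM, 1 bar per library. Both rRNA rows together reach 66.6% to 71.9% in the 5 P7 libraries and 52.2% to 67.6% in the 12 earlier ones.

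The 16S row dominated this share, at 60.9% to 66.7% of all values in the P7 libraries and 48.3% to 62.8% in the earlier ones. The 12S row took 4.87% to 7.87% at P7 and 2.81% to 8.91% before. The sum of the rows off chrM was lower at P7, with 8756 to 10279.8 FPKM in the 5 libraries, against 9717 to 12270.3 FPKM in the 12 earlier ones. Each library scaled to its sum off chrM gave a log2 change of the 16S row from P0 to P7 of 0.70 in RV (limma adjusted p = 0.115) and 0.77 in LV (limma adjusted p = 0.0378).

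The ratio of the 12S row to the 16S row does not depend on the scaling of the library. It ranged from 0.0526 to 0.161 with a median of 0.0813, so that, per length as the authors counted it, the 16S value was 6.22 to 19.0 times the 12S value. In RV the ratio was 0.0526, 0.0951 and 0.0960 at P0, 0.117, 0.161 and 0.0992 at P3, and 0.0777 and 0.0945 at P7. In LV it was 0.0606, 0.0794 and 0.0650 at P0, 0.0813, 0.0757 and 0.0613 at P3, and 0.101, 0.124 and 0.0772 at P7. The ratio was highest at P3 in RV and at P7 in LV, by group means of 0.126 ± 0.0316 and 0.101 ± 0.0234 (SD, n = 3 each). All 3 RV libraries of P3 lay above all 3 LV libraries of P3, while at P7 the ventricles overlapped.

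No comparison of the ratio over strata passed the test. On the log2 scale, P3 stood 0.37 above P0 (exact permutation p = 0.1, adjusted 0.267) and P7 0.34 above P0 (exact permutation p = 0.19, adjusted 0.304). The difference of P7 minus P3 was -0.04 (exact permutation p = 0.875). RV stood 0.26 above LV over the ages (exact permutation p = 0.18, adjusted 0.304). For P3 against P0, leaving out 1 library gave exact permutation p values of 0.035 to 0.23, not adjusted. The p was 0.035 without LV P0 replicate 2 and 0.035 without LV P3 replicate 3. In 10 of the 12 such fits the outcome stayed the same. At P3 alone RV stood 0.77 above LV, with an exact permutation p of 0.1, the smallest that 3 against 3 libraries can give.

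**Figure D4:**
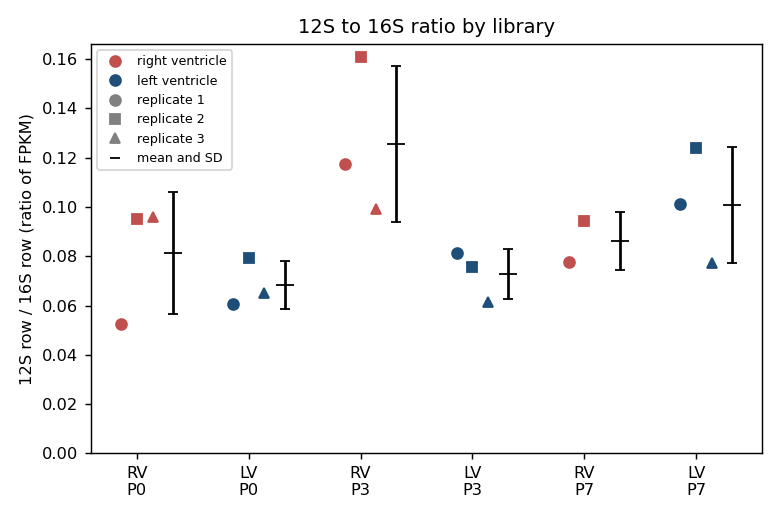
Ratio of the 12S row to the 16S row (ratio of FPKM, linear axis from 0) in each library, by ventricle and postnatal day, with the group mean and SD in black. The 3 RV libraries of P3 lie between 0.0992 and 0.161, above the 3 LV libraries of P3 at 0.0613 to 0.0813.

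The low partner rows share the positions of the abundant ones. The second row of NONMMUT071574, at the bounds of mt-Rnr1, measured 2.004, 4.29 and 3.87 FPKM in RV at P0, 4.52, 7.23 and 4.49 FPKM at P3, and 2.68 and 3.04 FPKM at P7. In LV it measured 2.74, 3.10 and 3.67 FPKM at P0, 3.13, 3.84 and 2.78 FPKM at P3, and 2.15, 3.34 and 3.58 FPKM at P7. It had no called change, with log2 changes from P0 to P7 of -0.17 ± 0.30 in RV and -0.09 ± 0.27 in LV (SE; limma adjusted p = 0.816 and 0.869), which were 0.11 and 0.24 with median scaling.

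Set against the abundant 12S row, this second row was proportionally lower at P7. It made up 0.155% and 0.162% of the 12S row in RV at P7, against 0.263%, 0.269% and 0.280% in RV at P0. In LV it made up 0.0990%, 0.118% and 0.224% at P7, against 0.318%, 0.243% and 0.377% at P0. The 5 P7 libraries, at 0.0990% to 0.224%, lay below all 12 earlier libraries, at 0.243% to 0.377%. This relation was chosen after its values were seen and is given with no test.

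**Figure D5:**
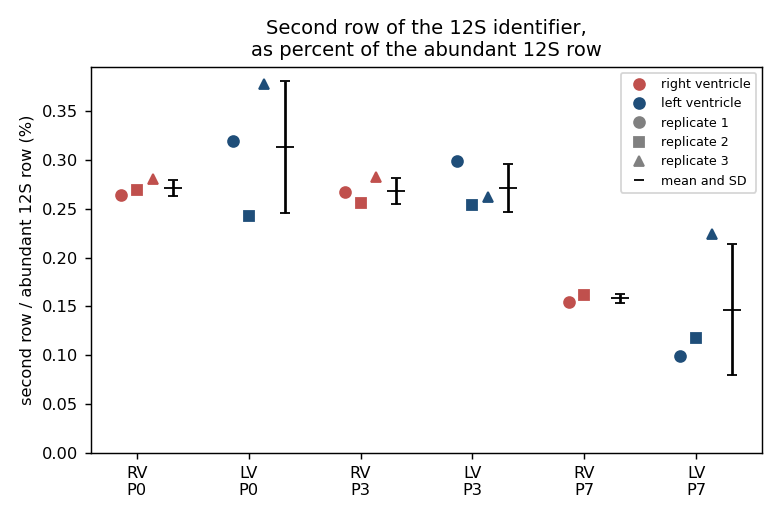
Value of the second row of NONMMUT071574 as percent of the abundant 12S row at the same position, in each library, with the group mean and SD in black (linear axis from 0). The 5 P7 libraries lie at 0.0990% to 0.224%, below the 12 libraries of P0 and P3.

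The remaining partner rows were near 0. NONMMUT071575, at the bounds of mt-Rnr1, was listed at 0 in 15 of 17 libraries and reached 0.191 FPKM in RV P0 replicate 3 and 0.0976 FPKM in LV P7 replicate 1. It did not pass the filter. NONMMUT071577, at the position of the 16S row, was above 0 in 14 of 17 libraries and reached at most 0.207 FPKM, in RV P3 replicate 2. It passed the filter through 2 libraries and had no called change in any of the comparisons.

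The other 5 rows on chrM were lower than the 12S row in every library, and none of them had a called rise. The largest was NONMMUT071605 at chrM:15356-16294. It covers the proline tRNA gene mt-Tp (minus strand) at its lower end, and higher positions in which the annotation has no gene. It measured 364 to 715 FPKM, and its log2 change from P0 to P7 was -0.04 in RV and 0.43 in LV (limma adjusted p = 0.947 and 0.103). NONMMUT071594, the row by which the library sets were told apart, averaged 72.5 FPKM. NONMMUT071600 at chrM:11720-14070, over mt-Nd5 and mt-Nd6, averaged 29.9 FPKM. NONMMUT071607 at chrM:15763-16188, inside the span of NONMMUT071605, averaged 28.1 FPKM, and NONMMUT071608 at the same position was above 0 in 1 library. Of these 5 rows, 4 passed the filter, and 1 call was made over the 11 comparisons, at P7 against P3 in LV. There 1.34% of all rows tested were called, and the share ranged from 0% (RV against LV at P0) to 11.2% (P7 against P0 in LV). NONMMUT071607 fell in LV to 12.5 ± 3.13 FPKM at P7, against 43.4 ± 19.0 FPKM at P3 (SD, n = 3 each; log2 change -1.70, limma adjusted p = 0.0404). The P3 libraries of the high set measured 57.7 and 50.6 FPKM and that of the low set 21.9 FPKM. The change with the set taken into account is not given here. The call was lost without the filter and with scaling to the sum off chrM. The median log2 change of the 4 rows from P0 to P7 was -0.36 in RV and -1.08 in LV, against -0.27 and -0.32 over all rows tested. P7 has no library of the high set. At P0 the high-set library of each ventricle held the highest value of NONMMUT071600 and NONMMUT071607. For NONMMUT071594 this was fixed, since its level defined the sets. There the value was 198 against 10.7 and 11.3 FPKM in RV, and 247 against 23.9 and 19.9 FPKM in LV. The medians with the set taken into account are not given here.

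Rows off chrM with the most similar profile were ranked by Pearson's r of log2(FPKM + 0.1) over the 17 libraries, among 1532 rows with a mean of at least 1 FPKM. For the 16S row these were TCONS_00028477 on chromosome 18 (35217858 to 35247285, r = 0.90), NONMMUT063992 on chromosome 7 (140939248 to 140945536, r = 0.85) and NONMMUT042487 on chromosome 3 (33955118 to 33956679, r = 0.84). For the 12S row they were TCONS_00023967 on chromosome 16 (84735711 to 84736184, r = 0.79), NONMMUT014248 on chromosome 12 (56088052 to 56089332, r = 0.78) and NONMMUT031819 on chromosome 18 (32181394 to 32186264, r = 0.77). The 12S and 16S rows themselves had r = 0.69. The libraries share their groups and the library sets, so these values are a description. Positions off chrM are printed as the files give them and the genes there were not analysed.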

How the data were processed

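The authors deposited 1 table per library with an ID, a position and a value. Per the submitters' processing notes, STAR 2.4.0j and mm10 were used. The sources used here do not give the annotation, counter or normalization. No unit is named: the deposited values were treated as FPKM because value times span falls on a common step, taken as 0.5 fragments, for 72.8% to 76.6% of low values of a library (within 0.05 of a step). The length counted for the remaining rows is not given. On 9 chromosomes positions run past the last GRCm38 gene, on chromosome 7 by 7.08 Mb, so only chrM was matched to GENCODE M21.

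Rows that reached 0.1 FPKM in 2 or more libraries entered a limma fit (version 3.58.1, R version 4.3.3) of log2(FPKM + 0.1), with 1 mean per group, a variance trend and robust moderation, and without rescaling. Log2 changes of low rows are understated. Shares and ratios were tested by exact permutation within strata (Python 3.11.15). The fits and tests were tested on simulated data. Alternatives covered pseudocount, filter, scaling, variance model, pairing, left-out libraries and library sets, and the sets were chosen after seeing the data. All rRNA rows were named, with up to 5 other chrM rows and the 3 rows most alike. The members and lists were chosen with earlier results of these data known. Whether the replicates are separate animals is not stated, so p-values measure the spread between these libraries. Several chrM rows overlap protein-coding genes and were described by position, and those genes were not analysed on their own.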

Additional observations from a re-analysis of the deposited data

Results flagged for a closer look

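In these libraries the 12S to 16S ratio differed between the ventricles by unequal amounts at P7 and P3. On the log2 scale the RV minus LV difference was -0.21 at P7 and 0.77 at P3, so that it was lower at P7 by -0.98 (P7 minus P3). An exact permutation test of this difference, with ventricle labels permuted within ages, gave p = 0.035, and 0.21 after adjustment over the 6 such tests of ratio and share. The test was added after seeing the values. Its null is no ventricle difference at either age, so a difference at P3 alone can also give a small p. It cannot decide whether the differences at P7 and P3 are unequal beyond these libraries. At P3 all 3 RV libraries lay above all 3 LV libraries, and at P7 the 2 RV libraries lay within the range of the 3 LV libraries.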

How the results depend on the processing

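The rise of the 16S row from P0 to P7 kept its direction in both ventricles under every alternative run, as did that of the 12S row and of the share. The 12S call in LV was lost without the variance trend (log2 change 1.07, limma adjusted p = 0.0517) and in the low set (1.03), with a leave-one-out range of 0.87 to 1.28. The 16S call in LV was lost without the trend (0.53). The 16S call in RV was lost with a pseudocount of 1 (0.47), without a filter (0.47), with median scaling (0.75), scaled to the sum off chrM (0.70) and without the trend (0.47), with a leave-one-out range of 0.39 to 0.55. The numbers of rows called moved with the settings, from 600 to 1339 in LV (1245 as reported) and from 179 to 669 in RV (615 as reported). With median scaling the calls split into 332 higher and 224 lower in RV, against 203 and 412 as reported, and into 509 higher and 399 lower in LV, against 288 and 957 as reported.

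The replicate numbers were checked as pairs. Libraries of 1 age and number in both ventricles deviated together with r of 0.0451 to 0.172, over 0.1 in 3 of 8 pairs, and pairing was taken as given only if all exceeded 0.1. That 16 of 16 libraries correlated best with their own number in the other ventricle is a hint of pairing from the data, not from the labels. For the comparisons of ages, the block instead joined libraries of 1 ventricle and number at different ages. Those deviated together with r of -0.087 to 0.037, over 0.1 in 0 of 16 pairs. The data thus give no hint of that pairing, and the block results for ages rest on the number alone. With the replicate block, which changed no direction but that of the P7 to P3 ratio (9.62e-05), calls were gained for the 12S row at P7 against P3 in LV (0.85), at P3 against P0 in RV (0.73) and for RV against LV at P3 (0.72, limma adjusted p = 0.0348 against 0.814 unpaired). The share difference became 11.7 for P7 against P0 and 9.0003 for P7 against P3 (exact sign-flip p = 0.0625 for each, the smallest possible).

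Values that were not called changed sign as follows. The 12S row at P7 against P3 in RV was 0.12 with median scaling and 0.095 scaled to the sum off chrM (leave-one-out -0.28 to 0.14). The RV minus LV difference of the 16S row was -0.061 at P0 and 0.025 at P3 in the high set, and, scaled to the sum off chrM, 0.0089 at P7 and 0.0097 over the ages. Its leave-one-out ranges were -0.063 to 0.057 at P0, -0.22 to 0.095 at P3, -0.12 to 0.039 at P7, -0.085 to 0.021 over the ages and -0.13 to 0.030 for the P7 to P0 change. The 16S row at P3 against P0 in LV was -0.0046 in the high set (leave-one-out -0.010 to 0.31). The second row of NONMMUT071574 at P7 against P0 was 0.11 in RV and 0.24 in LV with median scaling, 0.054 in RV and 0.15 in LV scaled to the sum off chrM, and 0.021 in LV in the low set. Its leave-one-out ranges were -0.50 to 0.034 in RV and -0.22 to 0.13 in LV. The RV minus LV share was -0.0798 as a difference in medians and -0.742 in the low set (leave-one-out -0.930 to 1.63).

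Other results moved as follows. In the high set the RV minus LV difference of the 12S row at P3 was 0.64. That set holds 2 libraries of each ventricle at P3 and 1 of each at P0. Its spread thus comes from the P3 libraries alone. In the low set the share at P7 against P3 did not pass (3.39). Leave-one-out ranges were 0.22 to 0.54 in LV and 0.32 to 0.48 in RV for the 16S row at P7 against P3, with 1 call gained in each, and for the ratio 0.23 to 0.45 at P3 against P0 and -0.12 to 0.061 at P7 against P3. The other chrM rows had 0 calls without a filter and 0 scaled to the sum off chrM, against 1 as reported. The cause of these changes was not tested. Where leaving out a library left RV at P7 with 1, the fit takes its spread from the other groups.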
